A study of Mus musculus with 72 samples.

Results

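Pou5f1, Sox2 and Nanog encode OCT4, SOX2 and NANOG, the transcription factors at the core of the pluripotency network. OCT4 is a POU-domain protein, SOX2 an HMG-box protein and NANOG a homeodomain protein. In embryonic stem cells they bind together at shared enhancers, often over an OCT4 and SOX2 composite motif, and among their targets are their own genes. Klf4 is a zinc finger factor of the same network, and CTCF is a zinc finger protein that marks chromatin loop anchors and insulators. The question addressed here is how the binding of these 5 factors around the 3 genes differed between cells with and without the nucleosome-binding proteins HMGN1 and HMGN2.

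All deposited peaks of 16 antibodies that lay within 50 kb of the body of Pou5f1, Sox2 or Nanog were taken. Peaks of the 4 libraries of an antibody were merged into sites where they overlapped by 1 bp or more, which gave 192 sites of 406334 in the whole series. Of these, 69 were near Pou5f1, 51 near Sox2 and 72 near Nanog. The 5 antibodies used in embryonic stem cells (ESCs) accounted for 166 of the 192 sites. ChIP-seq with these antibodies was carried out in mouse C57BL/6 ESCs of 2 genotypes, Hmgn1+/+n2+/+ (WT) and Hmgn1-/-n2-/- (DKO), each with 2 biological replicates. MEFs, fibroblasts from mouse embryos, and resting B cells of the spleen were studied in the same 2 genotypes with 6 and 5 other antibodies. How many clones or animals stood behind a genotype was not given in the sources used here. The value analysed was the fold enrichment at the peak summit over the local background, and a peak entered the lists at a q of 0.01 or lower.

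In mm9, with GENCODE vM1, Pou5f1 (ENSMUSG00000024406.9) lies at chr17:35642982-35647721, Sox2 (ENSMUSG00000074637.3) at chr3:34548927-34551383 and Nanog (ENSMUSG00000012396.5) at chr6:122657507-122664651, all on the forward strand. Sox2 lies inside Sox2ot, a long non-coding RNA gene. The window of Pou5f1 also holds H2-Q10, Tcf19, Cchcr1, Psors1c2 and Cdsn, and that of Nanog holds the glucose transporter gene Slc2a3, so a site in a window need not act on the gene that named it. Positions below are distances of a summit from the start of the gene, negative for upstream.

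The sequences under 3 OCT4 summits are shown first, because in both DKO libraries they were the strongest OCT4 sites of their windows and because they share a motif that no other OCT4 site there holds. Each is the mm9 forward strand, 5′ to 3′, within 100 bp of the OCT4 summit and, at Nanog, ending at the last base before the gene. Capitals mark the letters TTGTNATGC, the core of the SOX2 and OCT4 composite, on either strand. The stretch at Pou5f1 is from its distal enhancer. A further run in capitals in each sequence marks GGGNGTGG, a Klf-type motif. It was found at 6 of 13 Klf4 sites of the windows and 37.7% of all Klf4 sites, against 7.08% of positions 5000 bp away. At Sox2 4.1 kb no Klf4 peak was called in any library.
Pou5f1 -2.0 kb, chr17:35640910-35641110: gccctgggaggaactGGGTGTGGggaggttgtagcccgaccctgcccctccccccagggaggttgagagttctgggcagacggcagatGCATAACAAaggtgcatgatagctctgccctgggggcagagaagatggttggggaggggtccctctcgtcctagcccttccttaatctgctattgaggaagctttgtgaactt
Sox2 4.1 kb, chr3:34552887-34553087: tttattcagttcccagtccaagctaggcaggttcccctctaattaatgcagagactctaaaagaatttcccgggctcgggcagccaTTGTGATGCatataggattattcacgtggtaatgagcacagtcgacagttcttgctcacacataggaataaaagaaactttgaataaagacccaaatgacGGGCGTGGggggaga
Nanog promoter, chr6:122657333-122657506: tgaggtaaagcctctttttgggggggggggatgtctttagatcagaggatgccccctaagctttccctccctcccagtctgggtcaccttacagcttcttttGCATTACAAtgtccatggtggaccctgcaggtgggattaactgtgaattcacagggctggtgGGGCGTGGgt

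The core TTGTNATGC was found within 100 bp of the summit, on either strand, at 3 of the 29 OCT4 sites in the windows. Over all 35163 OCT4 sites of the genome 5.72% held it, against 0.537% of positions 5000 bp away. The same 3 elements held it at 3 of 23 SOX2 sites and 3 of 59 NANOG sites, against 6.32% and 2.87% of all sites of these antibodies. The core was chosen after a longer form of the composite had been searched in the same sequences. The octamer ATGCNAAT was found at 3 other OCT4 sites, 2 near Pou5f1 and 1 near Sox2, and at 20.1% of all OCT4 sites.

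The 166 sites of the 5 ESC antibodies fell into 99 elements when sites of different antibodies that overlapped were joined. The elements numbered 37 around Pou5f1, 28 around Sox2 and 34 around Nanog. One antibody alone was found at 63 of the 99, at least 3 of the 5 at 19, and all 5 at 0. Each of the 23 SOX2 sites and each of the 13 Klf4 sites shared its element with NANOG, as did 22 of the 29 OCT4 sites. CTCF stood apart from them, with 6 of its 42 sites in an element with NANOG and 0 with Klf4. Such counts were not taken over all sites of the genome, where NANOG had 79921 sites, OCT4 35163, SOX2 20747 and Klf4 8980. The map of sites by distance from the start of each gene shows these clusters and the CTCF sites between them.

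**Figure D1:**
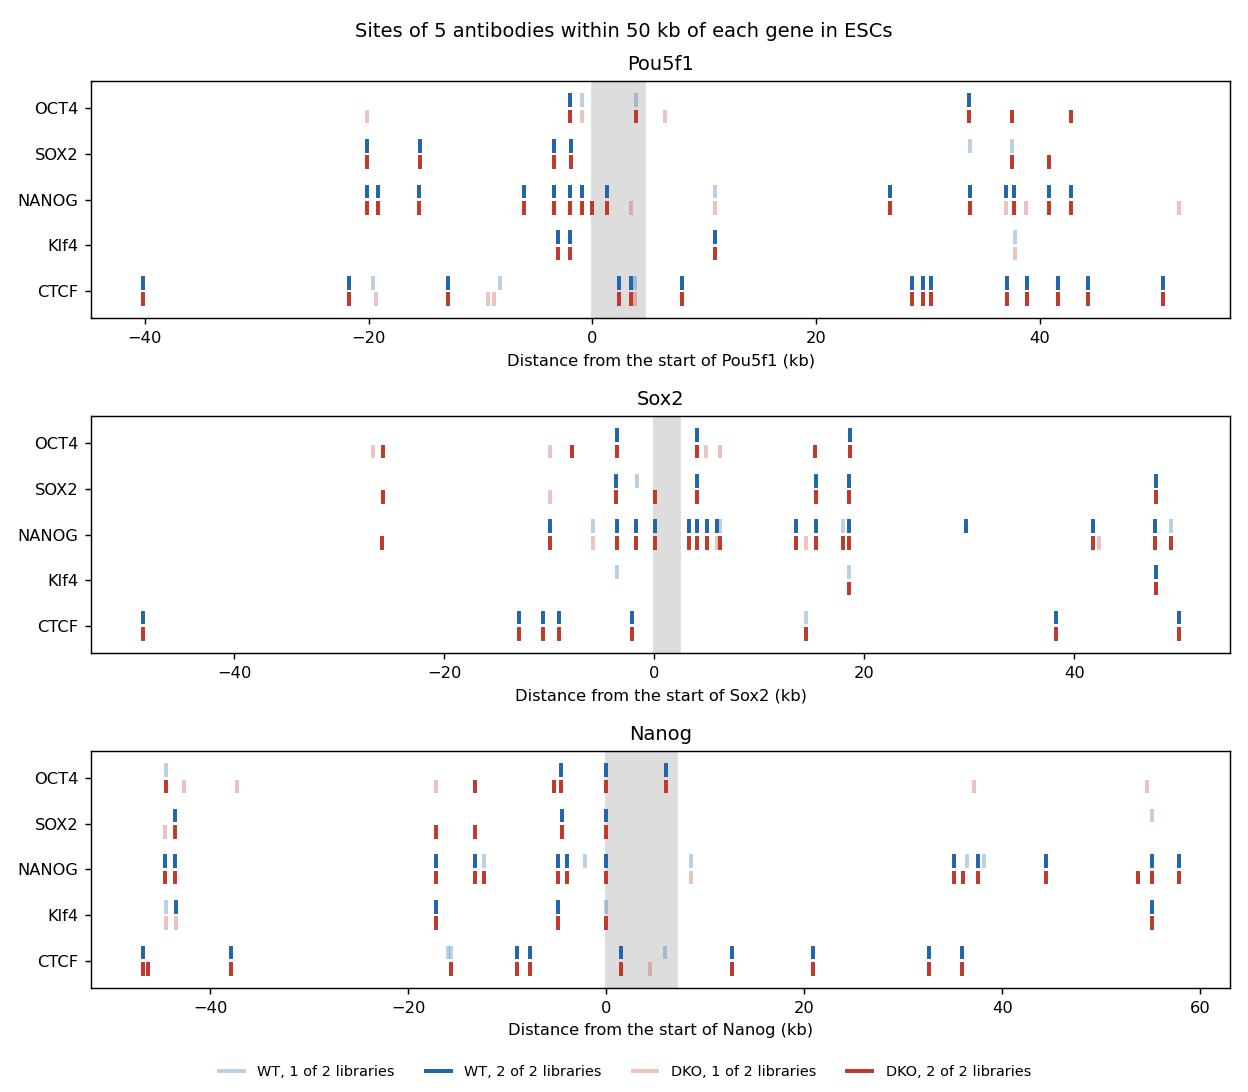
Position of every ESC site within 50 kb of Pou5f1, Sox2 and Nanog, in kb from the start of the gene, with WT above and DKO below for each antibody; dark marks were called in both libraries of the genotype, pale marks in 1, and the grey band is the gene body. OCT4 has more marks in DKO than in WT in all 3 windows, while the CTCF marks largely coincide.

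OCT4 peaks were more numerous in DKO around all 3 genes. The window of Pou5f1 held 2 and 4 OCT4 peaks in the WT libraries and 5 and 8 in the DKO libraries. The window of Sox2 held 3 and 3 in WT and 7 and 9 in DKO, and that of Nanog held 3 and 4 in WT and 7 and 10 in DKO. In each window both DKO libraries were above both WT libraries, which was also true of 49.5% of 22225 protein-coding genes. This share and those of genes below were taken over all genes, also those with few peaks. At least as many OCT4 peaks over the 4 libraries as near Pou5f1, Sox2 and Nanog were held by 4.64%, 2.94% and 2.19% of genes. The OCT4 lists themselves held 11140 and 12627 peaks in WT and 26742 and 30864 in DKO. With the 11140 peaks of lowest p taken from each list, the 3 windows together held 8 and 9 OCT4 peaks in WT and 9 and 8 in DKO. The higher number near the 3 genes was thus not seen among lists of equal length.

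For the other antibodies the peak numbers moved less. NANOG gave 42 and 47 peaks in WT and 50 and 50 in DKO over the 3 windows, and both DKO libraries were above both WT libraries in 2 of the 3 windows, against 37.1% of genes. SOX2 gave 13 and 16 in WT and 19 and 20 in DKO, with the libraries apart in 2 of the 3 windows, against 20.6% of genes. In lists of equal length the genotypes differed by -1 NANOG peaks and 1 SOX2 peak per library. CTCF gave 35 and 35 in WT and 35 and 36 in DKO, and Klf4 12 and 9 in WT and 11 and 11 in DKO, and the ranges of the genotypes overlapped in all 3 windows for Klf4 and CTCF. The share of genes with both DKO libraries above both WT libraries was 12.6% for CTCF and 4.40% for Klf4. With 2 libraries per genotype an exact permutation test cannot give a p below 0.333, so the numbers were not tested.

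**Figure D2:**
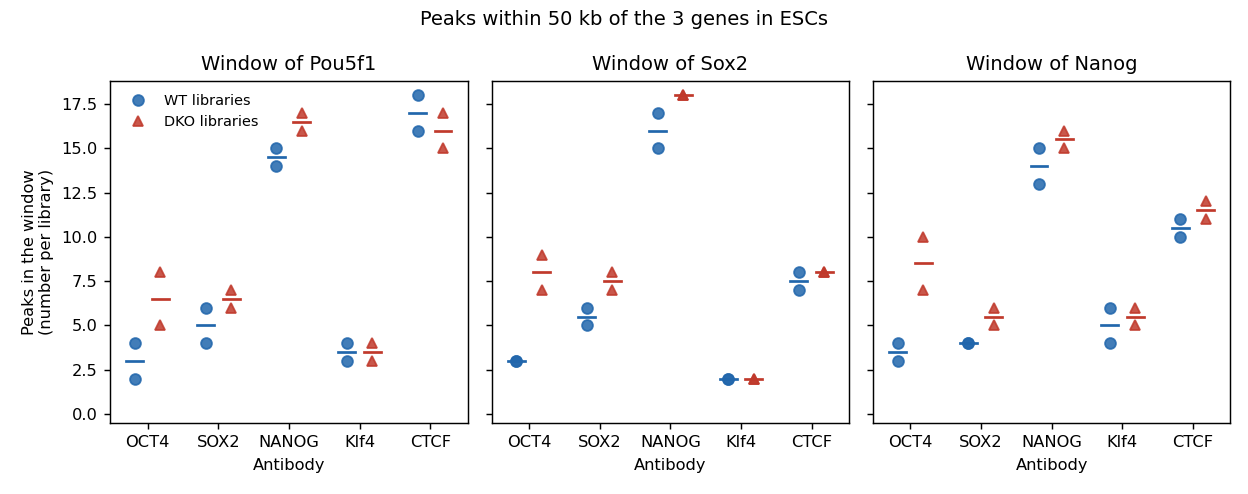
Number of peaks per library in the windows of Pou5f1, Sox2 and Nanog for each ESC antibody, with circles for the 2 WT libraries, triangles for the 2 DKO libraries and a line at each mean. The OCT4 triangles lie above the circles in all 3 windows, with 5 to 10 peaks per DKO library against 2 to 4 per WT library.

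The strength of a site was compared by the log2 fold enrichment at sites called in all 4 libraries of an antibody, fitted with limma over all such sites of the genome. OCT4 rose at 7 of the 8 window sites tested and fell at 0, where 86.3% of all 9434 OCT4 sites rose and 0.382% fell. The window counts were the same at an unadjusted p under 0.05, for which no share of all OCT4 sites was taken. The median change of all OCT4 sites was 0.93 on the log2 scale, so a rise near the 3 genes is read against it. After each library was centred on its own median, 1509 OCT4 sites were higher and 1885 lower, and in the windows 2 were higher and 1 lower (16% and 20% of all sites). SOX2 rose at 3 of 12 window sites and fell at 0, against 30.0% and 4.06% of all 7694 sites, around a median change of 0.35. At an unadjusted p under 0.05 its window counts were 5 and 0, again with no share of all sites taken. The centred SOX2 fit gave 823 sites higher and 1011 lower in the genome, 10.7% and 13.1%, and 2 higher and 1 lower in the windows. Sites called in both DKO libraries and no WT library numbered 7 of 29 for OCT4, 5 of 23 for SOX2 and 4 of 59 for NANOG, against 28.8%, 16.6% and 9.44% of all sites.

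The distal enhancer of Pou5f1, 2.0 kb upstream, was occupied by OCT4, SOX2, NANOG and Klf4 in every library. OCT4 fold enrichment at -1972 bp was 34.5 and 29.7 in WT and 90.8 and 117 in DKO. Both DKO values lay far above both WT values. The change was 1.68 ± 0.18 (SE) on the log2 scale (adjusted p = 2.58e-07), and 0.72 beyond the centre of the libraries (adjusted p = 0.0105). SOX2 here was 16 and 12 in WT and 19.2 and 23.4 in DKO, and its change of 0.61 did not pass the test (adjusted p = 0.060), though it did without WT replicate 1 (adjusted p = 0.0383) and with a prior variance that follows the level of a site (adjusted p = 0.0204). NANOG was 44.6 and 37.4 in WT and 39.8 and 35.6 in DKO, so the genotypes overlapped (change -0.12, adjusted p = 0.676). Klf4 was 18.7 and 16.6 in WT and 13.2 and 14.6 in DKO, lower in both DKO libraries, with a change of -0.35 that did not pass the test (adjusted p = 0.453).

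The region between this enhancer and the gene held weaker sites. At -0.9 kb, where the proximal enhancer of Pou5f1 lies, NANOG was 12.5 and 15 in WT and 8.63 and 11.2 in DKO, and OCT4 was called in WT replicate 2 at 5.66 and in DKO replicate 2 at 8.68. At the promoter itself, at -60 bp, a NANOG peak was called in the DKO libraries alone, at 5.67 and 4.47. At -3.4 kb NANOG was 14.0 and 17.3 in WT and 11.8 and 11.2 in DKO, and SOX2 was 4.80 and 6.45 in WT and 11.7 and 6.82 in DKO. Both DKO values of SOX2 lay above both WT values there, and the change of 0.68 did not pass the test (adjusted p = 0.0778). It was 0.29 without DKO replicate 1 (adjusted p = 0.517), 1.07 without DKO replicate 2 (adjusted p = 0.00697) and 0.29 after centring. Within the body of Pou5f1, NANOG at 1.3 kb was 12.3 and 15.4 in WT and 8.31 and 15.1 in DKO, which overlapped. OCT4 at 3.9 kb, in an intron, was 3.14 in WT replicate 2 and 6.14 and 5.44 in DKO.

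Farther from Pou5f1 the largest fall of NANOG in the windows was seen, among sites called in all 4 libraries. At 33.7 kb, an intergenic element beyond Psors1c2, NANOG was 32.2 and 29.0 in WT and 10.8 and 12.6 in DKO, a change of -1.39 ± 0.18 (SE, adjusted p = 0.00579). OCT4 at the same element went the other way, with 19.6 and 25.9 in WT and 33.0 and 40.5 in DKO (change 0.70 ± 0.19, adjusted p = 0.00183). That OCT4 change was below the median of all OCT4 sites, at -0.26 after centring (adjusted p = 0.219). The sequence of this element is printed because of that NANOG fall, and capitals mark the octamer ATGCNAAT, on the reverse strand within 100 bp of the OCT4 summit.
Pou5f1 33.7 kb, chr17:35676555-35676755: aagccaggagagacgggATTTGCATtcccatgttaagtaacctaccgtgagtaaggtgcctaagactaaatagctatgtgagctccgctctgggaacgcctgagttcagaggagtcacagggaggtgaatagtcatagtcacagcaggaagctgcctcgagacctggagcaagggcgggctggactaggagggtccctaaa

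Upstream of Pou5f1, NANOG moved both ways. At -6.1 kb it was 11.7 and 9.54 in WT and 4.26 and 4.92 in DKO (change -1.21, adjusted p = 0.00776; 0.0522 without DKO replicate 1). At -19.1 kb it was 3.39 and 3.32 in WT and 5.89 and 7.47 in DKO (change 0.98, adjusted p = 0.0124; 0.0743 without DKO replicate 2). At -20.1 kb, an element with SOX2, NANOG was 21.1 and 24.5 in WT and 16.1 and 11.9 in DKO (change -0.71, adjusted p = 0.0437). This last call was lost whichever 1 of the 4 libraries was left out, with adjusted p between 0.0563 and 0.212. SOX2 at -20.1 kb was 10.7 and 11.3 in WT and 8.94 and 8.54 in DKO, lower in both DKO libraries (change -0.33, adjusted p = 0.224; -0.72 after centring, adjusted p = 0.0262). The last named element of this window, at 37.5 kb, held OCT4 in the DKO libraries alone, at 6.43 and 9.18, beside NANOG at 7.57 and 7.36 in WT and 6.36 and 5.26 in DKO.

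The best-known enhancers of Sox2 are the Sox2 regulatory regions upstream and downstream of its single exon, and both were bound in every library by OCT4, SOX2 and NANOG. At 4.1 kb, the downstream region, OCT4 was 56.5 and 58.9 in WT and 109.6 and 135 in DKO, the highest OCT4 fold enrichment of the 3 windows. The change of 1.07 ± 0.17 (SE, adjusted p = 1.66e-05) was close to the median of all OCT4 sites, at 0.11 after centring (adjusted p = 0.544). SOX2 at this element was 8.51 and 8.59 in WT and 22.6 and 19.6 in DKO, a change of 1.3 ± 0.20 (SE, adjusted p = 0.00155), the largest of SOX2 in the windows among sites called in all 4 libraries. It remained past the test after centring, at 0.90 (adjusted p = 0.012). NANOG was 19.7 and 16.1 in WT and 35.6 and 29.5 in DKO (change 0.86, adjusted p = 0.0201), and this call was lost when WT replicate 2, DKO replicate 1 or DKO replicate 2 was left out, with adjusted p of 0.0627, 0.11 and 0.0611.

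At -3.6 kb, the upstream region, OCT4 was 19.1 and 26.5 in WT and 56.8 and 60.1 in DKO (change 1.38 ± 0.18, adjusted p = 2.12e-06), and 0.42 after centring (adjusted p = 0.0729). NANOG was 58.6 and 56.1 in WT and 45.9 and 44.7 in DKO, the highest NANOG fold enrichment of the 3 windows and lower in both DKO libraries (change -0.34, adjusted p = 0.171). SOX2 was 12.2 and 14.0 in WT and 13.2 and 17.8 in DKO, which overlapped. OCT4 fold enrichment was thus higher in DKO at both regions, and at neither did it pass the test after centring, while the NANOG values were higher in DKO downstream and lower upstream.

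The promoter of Sox2 showed the largest NANOG rise of the windows among sites called in all 4 libraries. At 52 bp, in the exon, NANOG was 7.56 and 9.34 in WT and 17.3 and 19.3 in DKO (change 1.12 ± 0.19, adjusted p = 0.00891), and without DKO replicate 2 the adjusted p was 0.0579. SOX2 was called there in the DKO libraries alone, at 5.25 and 4.92. OCT4 was not called there in any library. At -25.9 kb, in an intron of Sox2ot, 3 factors appeared together in the DKO libraries and in no WT library. OCT4 was 12.8 and 11.8 there, NANOG 11.7 and 12.3, and SOX2 6.64 and 5.78. This was the one element of the 99 with 3 antibodies in both DKO libraries and none in WT. How many such elements the whole genome holds was not counted.

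At 18.6 kb from Sox2, OCT4 was 10.2 and 13.6 in WT and 25.2 and 30.1 in DKO (change 1.22, adjusted p = 7.99e-06; 0.26 after centring, adjusted p = 0.216), while NANOG was 26.2 and 36.7 in WT and 32.9 and 36.2 in DKO. At 15.4 kb OCT4 was called in the DKO libraries alone, at 7.73 and 7.40, and NANOG was 35.2 and 36.0 in WT and 29.3 and 24.4 in DKO. At -9951 bp, where a CTCF site adjoins, NANOG was 18.8 and 16.6 in WT and 25.7 and 24.6 in DKO, higher in both DKO libraries (change 0.51, adjusted p = 0.069). At 47.7 kb NANOG was 45.5 and 45.7 in WT and 36.6 and 25.4 in DKO (change -0.58, adjusted p = 0.0872). With a prior variance that follows the level of a site, 4 NANOG sites here passed the test that did not pass it otherwise, higher in DKO at -9951 bp (adjusted p = 0.0201) and lower at -3.6, 15.4 and 47.7 kb (adjusted p = 0.0203, 0.0303 and 0.0114). A NANOG site at 41.8 kb, with no other factor, went from 18 and 18.5 in WT to 7.59 and 7.03 in DKO (change -1.32, adjusted p = 0.00579). A NANOG site at 29.7 kb was the one ESC site of the windows that both WT libraries and neither DKO library held, at 4.28 and 4.58, where 2.19% of all NANOG sites were of this kind.

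The promoter of Nanog had the largest OCT4 rise of the 8 window sites called in all 4 libraries. At -74 bp OCT4 was 11.7 and 13.3 in WT and 41.8 and 40.3 in DKO, a change of 1.71 ± 0.17 (SE, adjusted p = 1.34e-07). The rise exceeded the median of all OCT4 sites, at 0.75 after centring (adjusted p = 0.00559). SOX2 at this promoter was 7.01 and 6.09 in WT and 11.8 and 12.9 in DKO (change 0.92 ± 0.21, adjusted p = 0.00773), and 0.52 after centring (adjusted p = 0.0841). NANOG was 11.8 and 11.1 in WT and 16.5 and 15.4 in DKO, above WT in both DKO libraries without passing the test (change 0.48, adjusted p = 0.077). Klf4 was 6.59 in WT replicate 1, not called in WT replicate 2, and 6.77 and 6.95 in DKO. In the sequence above, the composite core lies within 6 bp of the OCT4 summit.

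At the enhancer -4.9 kb from Nanog the 4 factors were called in every library. NANOG was 36.3 and 38.7 in WT and 34.4 and 28.4 in DKO (change -0.26, adjusted p = 0.321). Klf4 was 21.2 and 19.1 in WT and 16.2 and 14.5 in DKO (change -0.39, adjusted p = 0.393). This was the highest Klf4 fold enrichment of the windows in every library but DKO replicate 2. SOX2 was 7.20 and 10.4 in WT and 9.90 and 10.1 in DKO, which overlapped. OCT4 was weak here, at 5.83 and 5.57 in WT and 10.3 and 9.33 in DKO (change 0.78, adjusted p = 0.00029; -0.18 after centring, adjusted p = 0.378). Another OCT4 peak, at -5.3 kb, was called in the DKO libraries alone, at 6.60 and 5.34.

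Upstream of Nanog, at -44.6 kb, OCT4 was 5.83 in WT replicate 2, not called in WT replicate 1, and 16.8 and 16.3 in DKO, beside overlapping NANOG values. From there towards the gene, NANOG rose at 3 distal elements, where SOX2 was also higher or was called in the DKO libraries alone. At -43.5 kb NANOG was 22.1 and 19.1 in WT and 34.3 and 38.5 in DKO (change 0.82, adjusted p = 0.018), and SOX2 was 5.80 and 6.37 in WT and 12.8 and 13.6 in DKO (change 1.12, adjusted p = 0.00291; 0.72 after centring, adjusted p = 0.026). At -17.2 kb NANOG was 9.96 and 10 in WT and 23.3 and 15.4 in DKO (change 0.92, adjusted p = 0.0261), and SOX2 was called in the DKO libraries alone, at 6.27 and 7.63. At -13.2 kb NANOG was 12 and 8.15 in WT and 16.9 and 18.3 in DKO (change 0.83, adjusted p = 0.0335), with SOX2 at 5.03 and 5.78 and OCT4 at 9.43 and 8.87 in the DKO libraries alone. Each of these NANOG calls was lost when a single library was left out, at -43.5 kb without WT replicate 2 or either DKO library, at -17.2 kb without WT replicate 1 or DKO replicate 1, and at -13.2 kb without WT replicate 2 or either DKO library, with adjusted p between 0.0537 and 0.139. Klf4 at -17.2 kb was 14.8 and 12.4 in WT and 7.98 and 8.03 in DKO (change -0.76, adjusted p = 0.094). At -43.5 kb it was 9.15 and 9.99 in WT, 3.39 in DKO replicate 1 and not called in DKO replicate 2. With missing values set to the lowest of the library, its change in limma was -1.72 (adjusted p = 0.111). Klf4 was also lower in both DKO libraries at -1968 bp from Pou5f1 and -4834 bp from Nanog. NANOG changed by -0.12 and -0.26 at these elements. Of 7 window Klf4 sites called in all 4 libraries, both DKO values lay below both WT values at 3, against 30.6% of all. They lay above them at 1, against 21.6%. A relation between the Klf4 and NANOG changes was not tested.

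Of the 8 OCT4 sites tested, 1 did not pass the test. At 6.0 kb, in an exon of Nanog, OCT4 was 14.6 and 14.0 in WT and 14.4 and 16.6 in DKO (change 0.12, adjusted p = 0.525), which is -0.85 relative to the centre of the libraries (adjusted p = 0.00365). In the WT libraries this was the strongest OCT4 site of the Nanog window, and in the DKO libraries the promoter was. Its element held no NANOG, SOX2 or Klf4 peak, and a CTCF peak in WT replicate 2 alone, at 4.39.

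**Figure D3:**
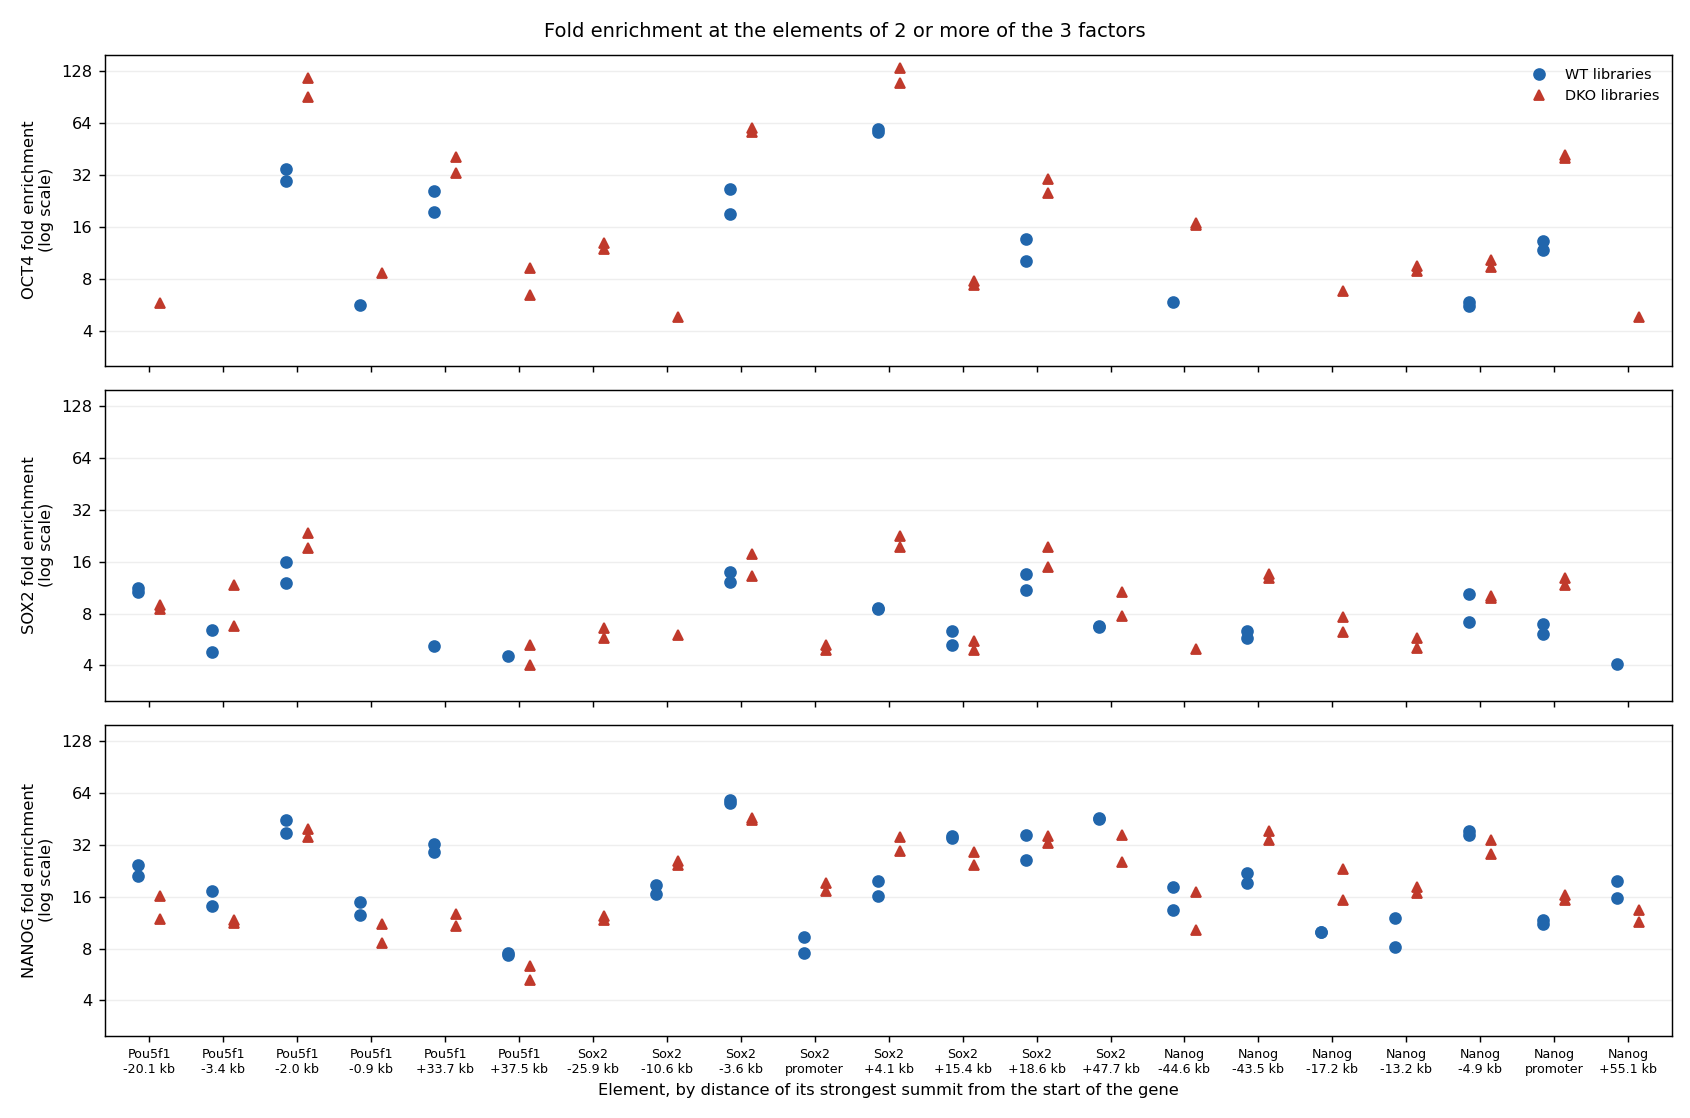
Fold enrichment of OCT4, SOX2 and NANOG (log axis) at the 21 named elements with sites of at least 2 of these 3 antibodies, labelled by distance from the start of the gene, with circles for WT and triangles for DKO libraries; a library without a call has no mark. OCT4 triangles lie above the circles at every element called in both genotypes, up to 109.6 and 135 at Sox2 4.1 kb, whereas NANOG triangles lie below the circles at Pou5f1 33.7 kb and above them at the Sox2 promoter.

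NANOG changed in both directions in the windows. Of 37 NANOG sites called in all 4 libraries, 6 rose and 4 fell by the test. By the same test 24.0% of all 39762 NANOG sites changed in either direction, 13% upward and 11.1% downward. At an unadjusted p under 0.05 the window counts were 8 and 13, and the share of all NANOG sites at that threshold was not taken. Without regard to the test, both DKO values lay below both WT values at 23 of the 37, against 31.4% of all NANOG sites, and above them at 8, against 33.9%. Around Pou5f1 that was 9 of 13 sites below, around Sox2 8 of 12 and around Nanog 6 of 12. The median change was -0.34 in the windows and 0.02 over all NANOG sites. The rises were at -19.1 kb from Pou5f1, at the promoter and 4.1 kb of Sox2, and at -43.5, -17.2 and -13.2 kb from Nanog, and the falls were at -20.1, -6.1 and 33.7 kb from Pou5f1 and 41.8 kb from Sox2. Of these 10 calls, 8 were lost when a single library was left out, all but those at 33.7 kb from Pou5f1 and 41.8 kb from Sox2. With missing values set to the lowest of the library, 4 were lost, at -20.1 kb from Pou5f1 (adjusted p = 0.109), 4.1 kb from Sox2 (0.0579), and -17.2 and -13.2 kb from Nanog (0.087 and 0.0991). For Klf4 limma made 0 calls among 7 window sites, where 3.90% of all 2310 Klf4 sites changed in either direction. At an unadjusted p under 0.05, 1 of the 7 was lower in DKO, and the share of all Klf4 sites at that threshold was not taken.

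**Figure D4:**
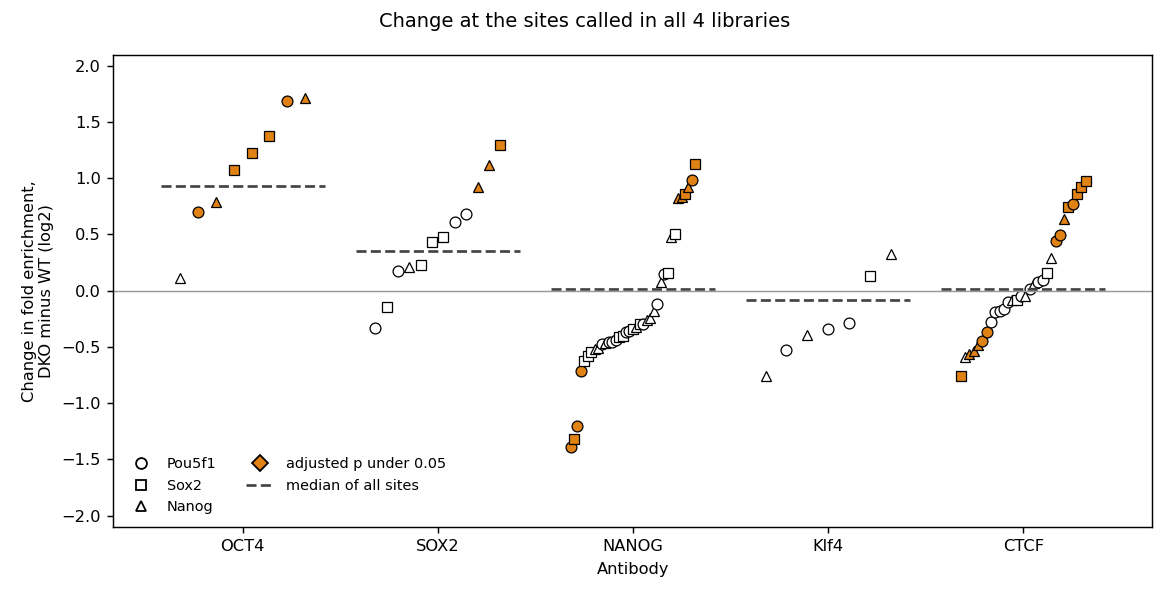
Change in log2 fold enrichment, DKO minus WT, at each window site called in all 4 libraries, with circles, squares and triangles for Pou5f1, Sox2 and Nanog, filled where the adjusted p was under 0.05; the dashed line is the median of all sites of the antibody in the genome. The OCT4 sites scatter around a median of 0.93, and most NANOG sites lie below their median of 0.02.

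CTCF changed at about as large a share of sites in the windows as elsewhere. Of 30 sites tested 8 rose and 6 fell, against 43.9% of all 56473 CTCF sites in either direction, 23.1% upward and 20.8% downward. At an unadjusted p under 0.05 the window counts were 8 and 7, and the share of all CTCF sites at that threshold was not taken. Of the rises, 2 were within Pou5f1, at 2.4 kb with 6.50 and 5.95 in WT and 8.57 and 9.01 in DKO (change 0.50, adjusted p = 0.0167), and at 3.5 kb with 15.8 and 17.1 in WT and 22.7 and 21.9 in DKO (change 0.44, adjusted p = 0.0225). Both were lost when single libraries were left out, the second for each of the 4, with adjusted p between 0.051 and 0.092. Another, at 8.0 kb near Tcf19, was 23.0 and 20.2 in WT and 37.5 and 36.2 in DKO (change 0.77, adjusted p = 0.00578). The outer sites of the Pou5f1 window fell, at -40.2 kb from 58.2 and 52.7 to 43.5 and 42.3 (change -0.37, adjusted p = 0.0406) and at 51.0 kb from 28.9 and 26.1 to 20.3 and 20 (change -0.45, adjusted p = 0.0226). The call at -40.2 kb was lost whichever library was left out, with adjusted p between 0.064 and 0.14, and with missing values set to the lowest of the library (adjusted p = 0.0584). That at 51.0 kb was lost without WT replicate 1 or either DKO library, with adjusted p between 0.0785 and 0.0883.

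Around Sox2, the CTCF site nearest the promoter fell and 4 of the more distant ones rose. At -2.1 kb CTCF was 36.2 and 36.1 in WT and 21.7 and 21.1 in DKO (change -0.76 ± 0.10, adjusted p = 0.00409), the largest fall of CTCF in the windows among sites called in all 4 libraries. Its sequence is shown with the letters AGNNGGCGC, a part of the CTCF motif chosen after longer forms had been searched, in capitals. They were found on either strand within 100 bp of the summit at 8 of 42 window sites and at 13.9% of all CTCF sites, against 0.771% of positions 5000 bp away.
Sox2 -2.1 kb, chr3:34546702-34546902: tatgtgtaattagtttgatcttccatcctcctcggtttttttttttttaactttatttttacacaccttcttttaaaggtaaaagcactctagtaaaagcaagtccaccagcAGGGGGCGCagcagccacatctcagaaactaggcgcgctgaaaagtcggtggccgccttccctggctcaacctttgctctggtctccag
The site at -9.1 kb was 17.5 and 22.5 in WT and 36.8 and 35.2 in DKO (change 0.86, adjusted p = 0.00933), and that at -10.6 kb was 18.5 and 22 in WT and 34.4 and 33.3 in DKO (change 0.75, adjusted p = 0.00807). At 38.3 kb CTCF was 7.02 and 5.30 in WT and 11.3 and 11.8 in DKO, and at 49.9 kb it was 6.88 and 5.76 in WT and 12.6 and 12.1 in DKO (change 0.97 ± 0.13, adjusted p = 0.00419), the largest rise of CTCF in the windows among sites called in all 4 libraries. The libraries of the genotypes were apart at each of these 5 sites, which are those that passed the test. Over all CTCF sites both DKO values lay above both WT values at 38.1% and below them at 36%. Around Nanog the sites at -7.7, 12.7 and 32.6 kb fell and that at -46.8 kb rose, by 0.64 on the log2 scale. Each of the 3 falls was lost with some single library left out, at -7.7 kb without either WT library or DKO replicate 2, at 12.7 kb without WT replicate 1 or either DKO library, and at 32.6 kb without either WT library or DKO replicate 2, with adjusted p between 0.0644 and 0.131. With missing values set to the lowest, the falls at 12.7 and 32.6 kb were also lost (adjusted p = 0.0563 and 0.066).

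Outside ESCs the 3 genes carried few peaks. Of the 6 MEF antibodies, H3K27ac, a mark of active enhancers, the acetyltransferase p300 and the acetyl-lysine reader Brd3 had peaks in the windows, 54 in all, against 506 in ESCs. The window of Sox2 held 0 of them. H3K27ac gave 11 and 12 peaks in the WT MEF libraries and 7 and 7 in the DKO libraries, and was lower in both DKO libraries at 2 of the 3 genes, as at 23.1% of all genes. Brd3 gave 7 and 6 in WT and 1 and 1 in DKO, also at 2 of the 3 genes, against 53.0% of all genes. At -4.6 kb from Nanog, inside the enhancer bound by 4 factors in ESCs, MEF H3K27ac was 19.4 and 16.8 in WT and 23.0 and 22.9 in DKO. At the same enhancer p300 was called in WT MEFs alone, at 5.84 and 5.98. Its peak number was lower in both DKO libraries at 1 of the 3 genes, against 6.74% of all genes. Brd3 had 2 sites at this enhancer. That at -4573 bp was 5.88 and 5.37 in WT, 5.15 in DKO replicate 1 and not called in DKO replicate 2, and that at -5041 bp was 6.02 and 5.19 in WT and not called in DKO. In resting B cells 1 of 5 antibodies had peaks in the windows, ETS1 at 35.2 kb from Nanog, at 7.34 and 7.87 in WT and uncalled in DKO. ETS1 peak numbers were lower in both DKO libraries at 18.4% of all genes, and the DKO B cell lists held promoter peaks at 2 of 4 B cell markers, against 4 of 4 in WT.

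Among 22 other genes of the pluripotency network, such as Klf2, Esrrb, Prdm14 and Lefty1, OCT4 rose at 43 of 45 window sites, against 86.3% of all OCT4 sites, with a median change of 1.2 beside 0.93. The list includes Dppa3, whose window overlaps that of Nanog, so sites from -46.8 to -42.7 kb from Nanog were counted in both. Peak numbers of OCT4 were apart, DKO above WT, in 19 of the 22 windows, against 49.5% of all genes. The same was so in 12 windows for NANOG, 11 for SOX2, 4 for CTCF and 0 for Klf4, against 37.1%, 20.6%, 12.6% and 4.40%. Klf4 peak numbers were lower in both DKO libraries in 5 of the 22 windows, against 1.83% of all genes, and in 0 of the windows of Pou5f1, Sox2 and Nanog. The shares of all genes include genes with few peaks, and no share was taken over genes of like peak number. At least as many Klf4 peaks as near Sox2, 8 over the 4 libraries, were held by 7.90% of genes. SOX2 rose at 12 of 53 sites and fell at 3, where 30.0% and 4.06% of all SOX2 sites did. NANOG rose at 16 of 207 and fell at 20, against 13% and 11.1%. CTCF rose at 33 of 152 and fell at 35, against 23.1% and 20.8%. Klf4 rose at 0 of 33 and fell at 1, where 3.90% of all Klf4 sites changed in either direction. After centring, 13 of the 45 OCT4 sites were higher and 3 lower, against 16% and 20%, and 4 of the 53 SOX2 sites were higher and 5 lower, against 10.7% and 13.1%. ESC lists of both genotypes held promoter peaks at 4 of 4 ESC marker genes and at 0 of 4 B cell markers, and at 2 of 4 MEF markers, Col1a1 and Col1a2.

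Depth differed between libraries and bears on fold enrichment. Read totals are not in the peak lists. The lowest local background that could be solved from the fold enrichment and p of each peak, which scales with depth, was 0.924 and 1.31 reads in the WT OCT4 libraries and 1.03 and 1.43 in the DKO libraries, so the genotypes overlapped. For Klf4 it was 1.12 and 1.19 in WT and 1.43 and 1.57 in DKO, and for SOX2 1.5 and 1.56 in WT and 1.74 in DKO replicate 1. It could not be solved for DKO replicate 2 of SOX2 nor for NANOG and CTCF, whose depth is unknown. The part of depth and of immunoprecipitation efficiency in the OCT4 and SOX2 rises was not tested. Inputs were labelled by genotype without a replicate number, and which input served which library was not given. Where both replicates of a genotype shared an input, its part in a difference between genotypes cannot be told apart from genotype. In a population of cells, fewer cells with a factor bound and weaker binding in each cell cannot be told apart.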

How the data were processed

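ChIP-seq peak lists of 20 ESC libraries were analysed, with those of MEFs and resting B cells. Per the labels and the study's methods, the authors trimmed reads with CutAdapt 1.16, mapped them to mm9 with BWA, marked duplicates, removed blacklisted reads and called peaks per library against input with MACS2 2.1.1.20160309. The deposited fold enrichment is a ratio of summit pileup to local background. The authors' caller gave −log10 p and −log10 q at each summit, and the deposited score is 10 times −log10 q. Lists were read with Python 3.11.15 and pandas 2.3.3. Log2 fold enrichment at sites called in all 4 libraries was fitted with limma 3.58.1 in R 4.3.3 over all sites of an antibody, without a replicate block, and adjusted by Benjamini-Hochberg at 0.05; the fit was tested on simulated data. Elements were named when within 1000 bp of a start of the gene or bound by at least 3 antibodies, with the largest change in each direction per antibody; other sites were added after their values were seen. Members and lists were chosen with earlier results of these data known. Motifs were searched with pysam 0.24.0 in forms chosen after other forms had been tried. Alternatives were centring, a trended prior, a fold enrichment of at least 4, summit matching within 200 bp, sites of at least 2 libraries with missing values at the lowest of the library, a replicate block, a q of 0.0001, equal list lengths, merging within 1000 bp, windows of 150 kb and each library left out.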

Additional observations from a re-analysis of the deposited data

How the results depend on the processing

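With each library centred on its median, the calls over all sites, higher and lower, came to 171 for Klf4 (91 and 80), 25166 for CTCF (11844 and 13322), 9673 for NANOG (4556 and 5117), 1834 for SOX2 (823 and 1011) and 3394 for OCT4 (1509 and 1885), and in each the direction with more calls turned. With missing values set to the lowest of the library there were 0 calls for Klf4, 24017 for CTCF, 5254 for SOX2 and 20013 for OCT4. For NANOG there were 13550, of which 9532 were higher and 4018 lower. With a library left out there were 49 to 167 for Klf4, 17032 to 17791 for CTCF, 2181 to 7644 for NANOG and 1725 to 2356 for SOX2; the direction turned for Klf4 (103, without WT replicate 1) and CTCF (17083, without DKO replicate 1), and NANOG fell to 2243 without DKO replicate 1 and 2181 without DKO replicate 2. The main fits gave 90, 24797, 9555, 2617 and 8174 calls for Klf4, CTCF, NANOG, SOX2 and OCT4.

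The mean log2 change of the window sites was -0.26 for Klf4, 0.05 for CTCF, -0.17 for NANOG, 0.47 for SOX2 and 1.08 for OCT4. Centred, it was -0.18, 0.0065, -0.22, 0.077 and 0.12. With missing values set to the lowest it was 0.13 for CTCF, -0.028 for NANOG and 0.73 for SOX2, and at a fold enrichment of at least 4 it was -0.18 for NANOG. With a library left out it ran from -0.44 to -0.22 for Klf4, 0.033 to 0.083 for CTCF, -0.19 to -0.16 for NANOG and 0.41 to 0.51 for SOX2.

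DKO minus WT peak numbers, 0.5 for Klf4, 0.5 for CTCF, 5.5 for NANOG, 5 for SOX2 and 13.5 for OCT4, came with equal list lengths to -2 for CTCF, -1 for NANOG, 1 for SOX2 and 0 for OCT4. In windows of 150 kb they were -1.5 for Klf4, 6 for CTCF, 7.5 for SOX2 and 26.5 for OCT4. CTCF was 1.5 at a q of 0.0001, and NANOG 2 with peaks merged within 1000 bp. With a library left out they ran from -1 to 2 for Klf4 (-1 without WT replicate 2), 0 to 1 for CTCF, 3 to 8 for NANOG (3 without WT replicate 1), 3.5 to 6.5 for SOX2 and 9.5 to 17.5 for OCT4.

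Among 51 named sites with a fit, centring turned 5: OCT4 at Pou5f1 33.7 kb (-0.26), Nanog -4.5 kb (-0.18) and Nanog 6.0 kb (-0.85), and SOX2 at Sox2 -3.6 kb (-0.17) and Nanog -4.4 kb (-0.19). A library left out turned 7 that had not passed the test, Klf4 at Pou5f1 -3.1 kb (-1.12 to 0.064) and Sox2 47.8 kb (-0.22 to 0.48), NANOG at Pou5f1 -2.0 kb (-0.24 to 0.012) and 1.3 kb (-0.72 to 0.14), Sox2 18.6 kb (-0.087 to 0.40) and Nanog -44.6 kb (-0.60 to 0.12), and SOX2 at Nanog -4.4 kb (-0.054 to 0.48). Missing values at the lowest took the call from 4 sites. A trended prior variance added 6 calls, NANOG at 4 sites around Sox2 and at Nanog 55.1 kb (adjusted p = 0.0485), and SOX2 at Pou5f1 -2.0 kb (adjusted p = 0.0204 in this limma fit). Same-numbered WT and DKO replicates did not deviate together (correlations of -0.0029 to 0.0216 over sites), so they share a number only. With the replicate block the calls over all sites were 109 for Klf4, 23479 for CTCF, 8795 for NANOG, 2778 for SOX2 and 8393 for OCT4, and 1 named call was lost, NANOG at Pou5f1 -20.1 kb (adjusted p = 0.0572), as was CTCF at Pou5f1 -40.2 kb (adjusted p = 0.0595). The cause of these moves was not tested. Fold enrichment without read counts gives no interval per library, and with 2 libraries per genotype p-values rest on the spread borrowed across sites.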
